A study of Mus musculus with 12 samples.

Results

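The bone morphogenetic protein (BMP) and TGF-beta genes described here are 52 genes chosen by name among the 56350 genes of the deposited count table: 12 BMP and GDF ligands, 5 TGF-beta and activin ligands, 11 receptors and co-receptors, 8 antagonists and modulators, 4 latent TGF-beta binding proteins, 8 SMADs and 4 ID targets. Of these, 48 were tested, since at least 3 of the 12 libraries held more than 10 counts of each. The other 4 were Bmp7, with 0 counts in each library, which allows up to 3 counts, Bmpr1b, with at most 1 count, Gdf6, with at most 7, and Bmp3, with at most 25. RNAseq was performed on MPC2, a conditionally immortalized mouse mesenchymal line that is 1 clone, with 3 libraries in each of 4 conditions. MSCs were the undifferentiated cells, and osteocytes were the same line after 3 weeks in media with ascorbic acid and beta-glycerophosphate at a higher temperature, so that the effects of temperature, media and differentiation cannot be told apart. Each cell type received for 48 hours either DMSO as vehicle or 50 µM FG-4592 (Roxadustat), an inhibitor of the prolyl hydroxylases (PHDs) that mark hypoxia-inducible factor (HIF) proteins for breakdown. All 4 conditions share the conditional immortalization of the line.

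Ligands of the TGF-beta family are secreted proteins that assemble pairs of type I and type II serine/threonine kinase receptors. BMP receptors act mainly through SMAD1, SMAD5 and SMAD9 and TGF-beta and activin receptors through SMAD2 and SMAD3, each with the shared partner SMAD4, and the ID genes are classical direct targets of the BMP branch. In bone, BMPs promote the formation of osteoblasts and cartilage, TGF-beta is stored in the matrix in latent complexes with LTBPs, and secreted antagonists such as noggin and follistatin bind the ligands before these reach a receptor.

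Levels are given as CPM, counts scaled to the TMM-adjusted library size, and levels of different genes are compared only as CPM per kilobase of exon. Changes are log2 fold changes with their standard error (SE) from edgeR's quasi-likelihood test, with the false discovery rate (FDR) taken over the 16484 genes tested. A gene passed both cutoffs where its FDR was under 0.05 and its log2 fold change was above 1 in size. Library totals ran from 52829185 to 68108470 counts, so that the limit of 3 counts for a count of 0 was 0.0447 to 0.0545 CPM, for counting error only. No label says that the 3 libraries of a condition came from separate cultures, so that the p-values measure the spread between libraries. In groups of 3, the smallest p of an exact permutation test on 1 gene is 0.1. The median coefficient of variation was 4.86 to 7.18% over the 38 to 43 members that averaged 100 counts or more in a condition.

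The osteocyte label was checked against marker genes. Of 8 osteoblast and osteocyte markers tested, Bglap, Dmp1 and Phex rose past both cutoffs with differentiation in vehicle. Of the same list Runx2 and Sp7 rose at an FDR under 0.05 (0.56 and 0.45), Ibsp (−0.74, FDR 0.00289, edgeR) and Alpl (−0.33, FDR 0.014) fell, all short of the cutoff on size, Col1a1 was at −0.03 (FDR 0.84), and the osteocyte markers Sost, Mepe and Pdpn had at most 2 counts in any library. With FG-4592, 4 of the 8 fell past both cutoffs in each cell type, Ibsp, Dmp1 and Phex in both, Alpl in MSCs and Bglap in osteocytes. The 5 adipocyte markers summed to 82.8 to 89.1 CPM in vehicle-treated MSCs and to 1680 to 2310 CPM in vehicle-treated osteocytes, and all 5 rose with differentiation at an FDR under 0.05, with Pparg (0.73) short of the cutoff on size. With FG-4592 they summed to 69.9 to 72.9 CPM in MSCs, where Adipoq fell past both cutoffs (−1.44) and Pparg fell (−0.21, FDR 0.0049, edgeR), and to 1920 to 2300 CPM in osteocytes, where Fabp4 rose past both (1.19) and Cidec rose (0.62, FDR 0.000915). The responses of Adipoq and Fabp4 were higher in osteocytes past both cutoffs (1.34 and 1.04). The 4 chondrocyte markers summed to 82.8 to 92.2 CPM in MSCs and 148 to 164 CPM with FG-4592, and to 108 to 128 CPM in osteocytes and 367 to 445 CPM with FG-4592. Of these, Sox9 and Col2a1 rose past both cutoffs with FG-4592 in osteocytes (1.21 and 2.23), Col2a1 with a response higher there past both (1.48). Both also rose in MSCs, short of the cutoff on size (0.87, FDR 4.91e-08, and 0.74, FDR 0.0461, edgeR). With differentiation in vehicle Col2a1 rose from 0.771 ± 0.313 to 62.7 ± 9.73 CPM (6.32), Sox9 fell short of the cutoff on size (−0.70) and Col10a1 fell past both (−1.54). The endothelial genes Cdh5 and Kdr, the blood genes Ptprc, Adgre1 and Hbb-bs and the muscle genes Myod1 and Myog were at or near 0, and the blood list summed to 0.754 to 2.05 CPM and the muscle list to 2.35 to 8.65 CPM over all libraries. The other 2 endothelial genes, Pecam1 and Tek, rose past both cutoffs with differentiation in vehicle (1.77 and 3.02) at no more than 21 and 107 counts, Tek also with FG-4592 in MSCs (2.03). The muscle gene Des fell with FG-4592 in MSCs (−1.50). In osteocytes Des rose short of the cutoff on size (0.61, FDR 0.00384, edgeR), and its response was higher there past both cutoffs (2.11). In these bulk libraries, fewer cells of a type and less RNA per cell cannot be told apart, and the part of the marker shifts in the results below was not tested.

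Promoter sequence was matched in the RefSeq table (GRCm38.p6) for 36 of the 52 members. Shown here are the bases upstream of the RefSeq start of 4 matched members, picked after their values were seen to stand for different FG-4592 responses. These are Tgfb2, which moved in opposite directions in the 2 cell types, Chrd, which rose in osteocytes, Fstl3, which rose in both, and Id4, which fell in MSCs and rose in osteocytes. For Id4 the RefSeq start lies 112 bases before the start in the deposited table, and for Fstl3 it lies 2 bases after it, so that 2 exonic bases were left off. Capitals mark the HIF core ACGTG on either strand and the BMP-type SMAD element GGCGCC.
Tgfb2, chr1:186705990-186706239, minus strand: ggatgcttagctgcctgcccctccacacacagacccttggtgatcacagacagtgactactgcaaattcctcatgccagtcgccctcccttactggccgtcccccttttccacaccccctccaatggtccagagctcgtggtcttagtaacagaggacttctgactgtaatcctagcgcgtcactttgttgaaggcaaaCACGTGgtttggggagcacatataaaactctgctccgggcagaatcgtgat
Chrd, chr16:20732877-20733126, plus strand: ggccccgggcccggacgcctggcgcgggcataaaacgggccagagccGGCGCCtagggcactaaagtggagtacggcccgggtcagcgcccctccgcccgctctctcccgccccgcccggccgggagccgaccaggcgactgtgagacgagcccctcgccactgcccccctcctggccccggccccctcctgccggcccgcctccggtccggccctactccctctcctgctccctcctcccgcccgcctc
Fstl3, chr10:79777024-79777271, plus strand: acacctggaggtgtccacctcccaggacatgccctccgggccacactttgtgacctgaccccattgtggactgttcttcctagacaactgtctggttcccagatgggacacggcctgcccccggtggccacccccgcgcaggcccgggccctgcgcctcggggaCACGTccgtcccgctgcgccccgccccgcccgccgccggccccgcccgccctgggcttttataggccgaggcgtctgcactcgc
Id4, chr13:48260866-48261115, plus strand: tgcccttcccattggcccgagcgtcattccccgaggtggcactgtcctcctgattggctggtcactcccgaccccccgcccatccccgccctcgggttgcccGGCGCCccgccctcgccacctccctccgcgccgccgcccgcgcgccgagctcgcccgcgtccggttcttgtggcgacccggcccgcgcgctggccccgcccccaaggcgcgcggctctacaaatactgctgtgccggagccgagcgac
In Tgfb2 the capitals are 2 overlapping matches of ACGTG, one on each strand, and in Fstl3 the match lies on the minus strand, where it reads CACGT on the strand shown. ACGTG was found on either strand in the 250 upstream bases of 7 of the 36 members and of 16.6% of the 32851 promoters in the table. The 7 were Bmp4, Bmp6, Fstl3, Gdf15, Ltbp1, Smad6 and Tgfb2, of which Fstl3 rose past both cutoffs with FG-4592 and Gdf15 fell past them in osteocytes, while matched members such as Id2, Grem1 and Bmp5 passed both cutoffs there without it. The other HIF core, GCGTG, was found in 17 members and 28.2% of promoters, and GGCGCC in 10 members and 9.59%. The palindromic SMAD element GTCTAGAC was found in 0 members and 0.167% of promoters. A member was counted where any of its promoters in the table held the match, whereas the shares are per promoter. The counts and shares are therefore not on the same scale. These matches describe the sequence only.

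With FG-4592, 5 of the 48 members tested in MSCs and 10 in osteocytes passed both cutoffs. In MSCs, Fstl3 rose and Tgfb3, Nog, Fst and Id4 fell. These were 1 member up and 4 down, where 4.12% of all genes tested rose and 5.17% fell. In osteocytes, Acvrl1, Chrd, Chrdl1, Fstl3, Id2 and Id4 rose and Bmp5, Gdf15, Grem1 and Id1 fell, 6 up and 4 down, where 6.25% of all genes tested rose and 4.26% fell. At an FDR under 0.05 with no cutoff on size, 10 members rose and 19 fell in MSCs, beside 17.6% and 20.4% of all genes tested, and 18 rose and 17 fell in osteocytes, beside 21.9% and 22.0%. Of these 64 changes, 16 lay above an FDR of 0.05 under at least one alternative, as given with the genes. The median log2 fold change of the members was −0.17 in MSCs, against −0.05 over all genes, and 0.04 in osteocytes, against 0.00154 over all genes.

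**Figure D1:**
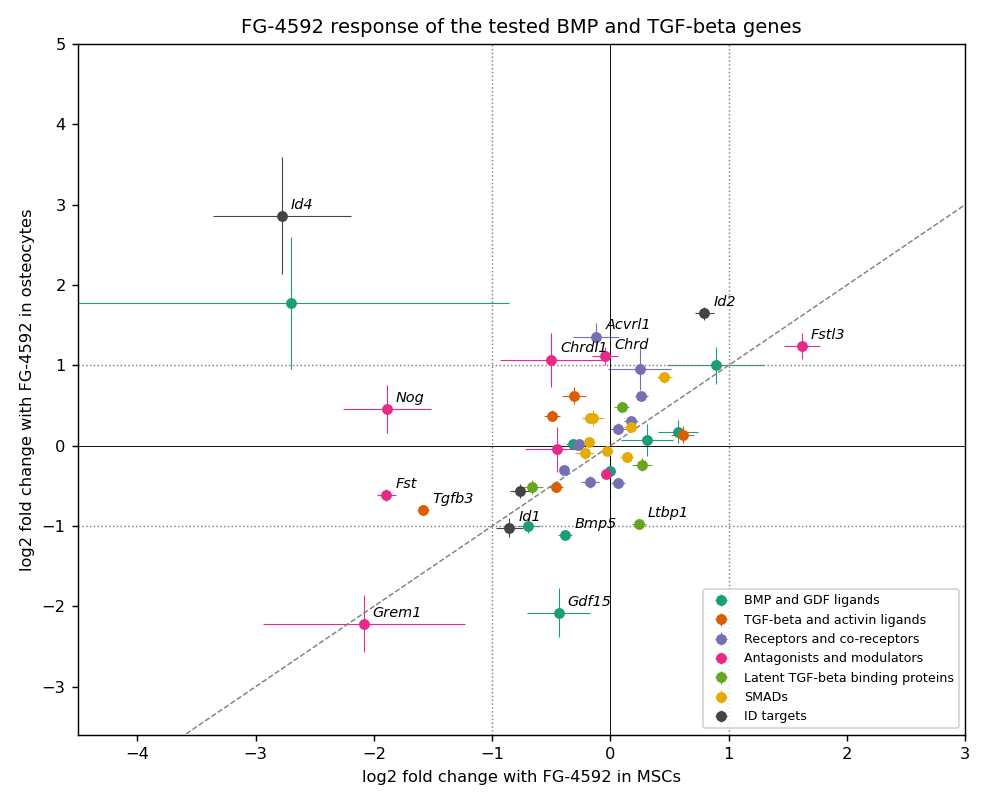
Log2 fold change with FG-4592 in MSCs (horizontal axis) and in osteocytes (vertical axis) of the 48 tested members, coloured by role, with bars for the SE, dotted lines at the cutoff of 1 and a dashed line of equal response. Members named passed both cutoffs in a treatment comparison or in the difference between the responses, Id4 sits at −2.78 in MSCs and 2.86 in osteocytes, and the unnamed point beneath it is Gdf5, which had at most 2 counts in any MSC library.

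Among the TGF-beta ligands, Tgfb3, the isoform with the highest mean level per kilobase in each condition, was lower with FG-4592 in both cell types. Tgfb3 (chr12:86056745-86079041, minus strand) stood at 251, 261 and 242 CPM in vehicle-treated MSCs and at 84.8, 86.3 and 80.7 CPM with FG-4592. In osteocytes it stood at 539, 577 and 538 CPM with vehicle and at 325, 300 and 321 CPM with FG-4592. The 4 conditions did not overlap. The log2 fold change was −1.58 (SE 0.05, FDR 7.16e-13, edgeR) in MSCs and −0.81 (SE 0.05, FDR 1.8e-09) in osteocytes, so that Tgfb3 passed both cutoffs in MSCs alone, and the fall was smaller in osteocytes by 0.78 (SE 0.07, FDR 1e-06).

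Tgfb2, a second isoform, went in opposite directions. It stood at 180, 189 and 172 CPM in vehicle-treated MSCs and at 123, 122 and 139 CPM with FG-4592, or −0.49 (SE 0.06, FDR 1.22e-05, edgeR). Its osteocyte levels were 91.7, 80.6 and 79.7 CPM with vehicle and at 109, 112 and 106 CPM with FG-4592, or 0.37 on the log2 scale (SE 0.06, FDR 0.000167). Neither change reached the cutoff on size, the libraries of the 2 treatments did not overlap in either cell type, and the responses differed by 0.87 (SE 0.09, FDR 4.4e-06). Tgfb1, the third isoform, fell by 0.46 in MSCs and by 0.52 in osteocytes on the log2 scale (FDR 1.25e-05 and 2.51e-06), with no difference between the responses past the test (−0.06, SE 0.08, FDR 0.673).

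The makeup of the TGF-beta ligands shifted with treatment and with cell type, as shares of their summed CPM per kilobase. The sum was 123.8 ± 4.12 CPM per kilobase (SD, n = 3) in vehicle-treated MSCs and 60.3 ± 0.656 with FG-4592, and 200.5 ± 6.22 in vehicle-treated osteocytes and 128.1 ± 3.67 with FG-4592. Tgfb3 made up 59.1 to 60.9% of it in vehicle-treated MSC libraries and 39.4 to 42.1% with FG-4592, against 80.5 to 82.1% and 71.6 to 73.6% in osteocytes. Tgfb2 made up 24.6 to 25.4% and 34.6 to 39.7% in MSCs, and 6.71 to 8% and 14.2 to 15.6% in osteocytes. In the third FG-4592-treated MSC library Tgfb2 stood at 24.02 and Tgfb3 at 23.85 CPM per kilobase. In both cell types the share of Tgfb3 was lower and that of Tgfb2 higher in each FG-4592 library than in any vehicle library. These shares rest on the same counts as the tests above.

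The activin subunits, whose dimers form the activins, are encoded by Inhba and Inhbb. Inhba was 32.4 ± 3.35 CPM in vehicle-treated and 49.5 ± 1.72 CPM in FG-4592-treated MSCs, a rise of 0.61 (SE 0.10, FDR 0.000144, edgeR) on the log2 scale, and the difference in osteocytes was 0.14 (SE 0.10, FDR 0.306). Inhbb fell in MSCs, by 0.31 (SE 0.10, FDR 0.0255), and rose in osteocytes, by 0.62 (SE 0.10, FDR 0.000107). The fall in MSCs lay above an FDR of 0.05 under 6 alternatives, 5 of which left out a library, with −0.22 (FDR 0.169) without the second vehicle-treated MSC library. The interaction was 0.93 (FDR 0.000201) for Inhbb and −0.47 (FDR 0.0241) for Inhba, the latter over the cutoff when any of 3 libraries was left out (at most FDR 0.0636, without the third FG-4592-treated osteocyte library). Inhbb libraries ran from 13.7 to 15.4 CPM and from 11.2 to 11.7 CPM in MSCs, and from 10.1 to 13.1 CPM and from 15.7 to 18.6 CPM in osteocytes, with no overlap between the treatments in either.

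Of the 9 BMP and GDF ligands tested, 2, Bmp5 and Gdf15, fell past both cutoffs with FG-4592 in osteocytes, beside 4.26% of all genes tested. In MSCs 1 rose and 3 fell at an FDR under 0.05, beside 17.6% and 20.4% of all genes, all short of the cutoff on size. Bmp5, a BMP of the Bmp6 and Bmp7 subgroup, lies on chromosome 9 (chr9:75775364-75900310, plus strand). It stood at 114, 114 and 107 CPM in vehicle-treated MSCs and at 88.3, 87.7 and 80.7 CPM with FG-4592. Osteocytes held 255, 231 and 227 CPM with vehicle and at 115, 112 and 102 CPM with FG-4592. FG-4592-treated osteocytes overlapped vehicle-treated MSCs, and vehicle-treated osteocytes lay above all other libraries. The log2 fold change was −0.38 (SE 0.06, FDR 9.16e-05, edgeR) in MSCs and −1.12 (SE 0.06, FDR 3.23e-10) in osteocytes, a difference of −0.73 (SE 0.09, FDR 1.28e-05). Bmp5 shares 1878 of its 4025 exonic bases with Gm26903 on the opposite strand, which had 0 to 7 counts.

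Gdf15, a stress-responsive ligand of the family that acts on the receptor GFRAL in the brainstem, lies at chr8:70629393-70632456 on the minus strand. It had 213, 306 and 377 counts in vehicle-treated MSCs and 215, 272 and 214 with FG-4592, or 4.97 ± 1.04 and 3.67 ± 0.359 CPM. In osteocytes it had 162, 202 and 178 counts with vehicle and 67, 19 and 46 with FG-4592, or 2.99 ± 0.601 and 0.700 ± 0.364 CPM. The MSC libraries overlapped and the osteocyte libraries did not. The fall in osteocytes was −2.08 (SE 0.31, FDR 3.58e-05, edgeR), the value in MSCs was −0.44 (SE 0.27, FDR 0.222), and the interaction was −1.64 (SE 0.41, FDR 0.00725).

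Bmp4, which acts on bone and cartilage precursors, had the highest level per kilobase of the BMP ligands, at 138.5 CPM per kilobase in vehicle-treated MSCs and 117.9 in vehicle-treated osteocytes. It fell in MSCs, by 0.32 (SE 0.06, FDR 0.000334, edgeR) on the log2 scale, and its value in osteocytes was 0.02 (SE 0.06, FDR 0.811). Its share of the summed BMP ligands was 82.8% with vehicle and 83% with FG-4592 in MSCs, and 64.3% and 76.5% in osteocytes, where that of Bmp5 was 32.2% and 17.4%. Together Bmp2, Bmp6 and Bmp8a made up the small remainder.

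Gdf11, a ligand close to myostatin, and Bmp6 lay at the cutoff in osteocytes. Gdf11 fell in both cell types, by 0.70 (SE 0.10, FDR 2.33e-05, edgeR) in MSCs and by 1.00 (SE 0.10, FDR 3.17e-07) in osteocytes, a value just short of the cutoff. Bmp6 (chr13:38345107-38500302, plus strand) stood at 10.0, 10.4 and 8.12 CPM in vehicle-treated and 17.0, 21.1 and 18.9 CPM in FG-4592-treated osteocytes. The treated libraries were all higher, with a log2 fold change of 1.00 (SE 0.23, FDR 0.0018) that did not exceed the cutoff. In MSCs Bmp6 had 26, 15 and 16 counts with vehicle and 14, 34 and 66 with FG-4592, which overlap. Bmp6 shares 224 exonic bases with Txndc5 on the opposite strand, and Txndc5 had 17768 to 24310 counts. Bmp8a rose in MSCs (0.57, SE 0.17, FDR 0.0139), a call lost without the first FG-4592-treated MSC library (0.50, FDR 0.0515), and Bmp2, a strong inducer of bone formation, passed the test in neither cell type.

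Of the 10 receptors and co-receptors tested, Acvrl1 alone passed both cutoffs with FG-4592, in osteocytes, where 6.25% of all genes tested rose past them. Acvrl1 encodes ALK1, a type I receptor best known in endothelial cells, and lies at chr15:101128522-101145336 on the plus strand. It stood at 1.83, 1.62 and 2.09 CPM in vehicle-treated MSCs and at 2.30, 1.30 and 1.53 CPM with FG-4592. In osteocytes the level was 4.94, 5.27 and 5.03 CPM with vehicle and at 11.5, 15.0 and 12.6 CPM with FG-4592. The MSC libraries overlapped, whereas the FG-4592-treated osteocyte libraries lay above all others. The log2 fold change was −0.12 (SE 0.20, FDR 0.677, edgeR) in MSCs and 1.36 (SE 0.17, FDR 6.82e-06) in osteocytes, a difference of 1.48 (SE 0.26, FDR 0.000556). The 4 endothelial markers summed to 0.145 to 0.251 CPM and 0.268 to 1.11 CPM in MSCs, and to 0.813 to 1.93 CPM and 1.77 to 2.64 CPM in osteocytes, with Cdh5 at or near 0 throughout. The Tek and Pecam1 values with FG-4592 in osteocytes were 0.65 (FDR 0.31) and 0.39 (FDR 0.633), and their part in the rise was not tested.

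The remaining receptors changed by less. In MSCs Tgfbr2, the type II receptor of TGF-beta, and Bmpr1a, a type I BMP receptor, rose at an FDR under 0.05, and Tgfbr3, Acvr1 and Eng fell. In osteocytes Tgfbr2, Bmpr1a, Bmpr2, Acvr2b and Acvrl1 rose, and Tgfbr1, Tgfbr3 and Acvr2a fell. Of these calls, Bmpr1a in MSCs and Bmpr2 in osteocytes were lost with library size in place of TMM (0.09, FDR 0.235, and 0.11, FDR 0.226) and when any of 2 and 4 libraries was left out, and Eng in MSCs was lost without the third vehicle-treated MSC library (−0.17, FDR 0.0524). The receptors of TGF-beta itself parted in osteocytes. Tgfbr2 rose from 171 ± 9.54 to 261 ± 13.5 CPM (0.61, SE 0.05, FDR 6.93e-08, edgeR), whereas Tgfbr1, its type I partner, fell from 157 ± 17.0 to 114 ± 3.19 CPM (−0.46, SE 0.06, FDR 1.22e-05). In MSCs Tgfbr2 rose by 0.26 (SE 0.05, FDR 0.000686) and Tgfbr1 differed by 0.06 (SE 0.06, FDR 0.473), and both interactions passed the FDR cutoff (0.35, FDR 0.00206, and −0.53, FDR 0.000347). Tgfbr3, the co-receptor betaglycan, stood at 68.9 CPM per kilobase in vehicle-treated MSCs and fell by 0.39 and 0.31 (FDR 1.66e-06 and 1.76e-05). The median log2 fold change of the 10 receptors was −0.03 in MSCs and 0.12 in osteocytes.

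Of the 8 antagonists and modulators, 1 rose and 2 fell past both cutoffs in MSCs, beside 4.12% and 5.17% of all genes tested, and 3 rose and 1 fell in osteocytes, beside 6.25% and 4.26%. Nog encodes noggin, which binds BMPs, and lies at chr11:89300638-89302332 on the minus strand. It had 59, 56 and 37 counts in vehicle-treated MSCs and 14, 19 and 11 with FG-4592. In osteocytes it had 133, 119 and 143 counts with vehicle and 141, 272 and 136 with FG-4592, where the second library stood apart at 4.45 CPM beside 2.17 and 2.25 CPM. Noggin fell in MSCs, by 1.89 (SE 0.37, FDR 0.00071, edgeR) on the log2 scale, with no overlap, and differed by 0.45 (SE 0.30, FDR 0.244) in osteocytes, where the libraries overlapped. The interaction was 2.34 (SE 0.48, FDR 0.0019).

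Fst encodes follistatin, which binds activins, and lies at chr13:114452290-114458951 on the minus strand. It stood at 17.7, 17.8 and 18.3 CPM in vehicle-treated MSCs and at 5.19, 4.36 and 4.95 CPM with FG-4592. Osteocyte libraries stood at 82.2, 78.3 and 86.4 CPM with vehicle and at 49.3, 53.0 and 58.8 CPM with FG-4592. It was lower in every treated library of both cell types, with a fall of 1.90 (SE 0.08, FDR 2.86e-11, edgeR) in MSCs and of 0.62 (SE 0.07, FDR 2.72e-06) in osteocytes on the log2 scale, and an interaction of 1.28 (SE 0.11, FDR 4.55e-07).

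Fstl3, which encodes a second follistatin-type inhibitor of activins, was the member that rose past both cutoffs in both cell types. It lies at chr10:79777272-79782630 on the plus strand. It stood at 1.96, 2.44 and 2.26 CPM in vehicle-treated MSCs and at 7.00, 6.38 and 7.12 CPM with FG-4592. In osteocytes it was at 1.08, 1.08 and 1.09 CPM with vehicle and at 2.52, 2.45 and 2.71 CPM with FG-4592. Every treated library lay above every vehicle library of its cell type, with log2 fold changes of 1.62 (SE 0.15, FDR 2.96e-07, edgeR) and 1.24 (SE 0.16, FDR 9.32e-06), and the responses did not differ past the test (−0.38, SE 0.22, FDR 0.235). Fstl3 shares 1157 of its 2445 exonic bases with Prss57 on the opposite strand, which had 0 to 23 counts.

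Chrd and Chrdl1 encode chordin and a chordin-like protein, which bind BMPs, and rose in osteocytes. Chrd (chr16:20733127-20742384, plus strand) stood at 10.3, 12.2 and 13.4 CPM in vehicle-treated MSCs and at 11.4, 13.1 and 10.2 CPM with FG-4592. In osteocytes it stood at 14.4, 16.7 and 13.3 CPM with vehicle and at 30.7, 31.8 and 33.3 CPM with FG-4592. FG-4592-treated osteocytes lay above all other libraries. Vehicle-treated MSCs overlapped both FG-4592-treated MSCs and vehicle-treated osteocytes, and these last groups did not overlap each other. The rise was 1.11 (SE 0.11, FDR 5.09e-07, edgeR) in osteocytes, the value in MSCs was −0.05 (SE 0.11, FDR 0.794), and the interaction was 1.16 (SE 0.16, FDR 6.22e-05). Chrd shares 239 exonic bases with Thpo on the opposite strand, which had 39 to 139 counts.

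Chrdl1 (chrX:143285674-143394262, minus strand) had 41, 14 and 33 counts in vehicle-treated MSCs and 34, 16 and 16 with FG-4592. In osteocytes it had 100, 132 and 178 counts with vehicle and 304, 331 and 250 with FG-4592. The osteocyte groups did not overlap, with a rise of 1.07 (SE 0.34, FDR 0.0161, edgeR), and the MSC groups did (−0.50, SE 0.43, FDR 0.396). The call in osteocytes rested on single libraries: it was 0.83 (FDR 0.066) without the first vehicle library and 0.96 (FDR 0.0641) without the second FG-4592 library. The interaction of 1.57 (SE 0.54, FDR 0.0461) passed 0.05 in the fit of all libraries and lay above it when any of 9 of the 12 libraries was left out.

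Grem1 encodes gremlin 1, which binds BMPs, and lies at chr2:113746164-113758646 on the minus strand. It had 8, 6 and 3 counts in vehicle-treated MSCs and 2, 2 and 0 with FG-4592, too few for a fold to be read. In osteocytes it had 280, 304 and 354 counts with vehicle and 110, 35 and 63 with FG-4592, or 5.15 ± 0.818 and 1.10 ± 0.563 CPM. The treated libraries all lay lower, a fall of 2.22 (SE 0.36, FDR 8.48e-05, edgeR) on the log2 scale. Fstl1, a secreted protein related to SPARC and grouped here with the modulators, held 97 to 99.5% of the summed CPM per kilobase of the 7 secreted genes of the group and fell in osteocytes, by 0.35 (SE 0.04, FDR 6.15e-06). Bambi, a pseudoreceptor that blocks signalling, passed the test in neither cell type.

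**Figure D2:**
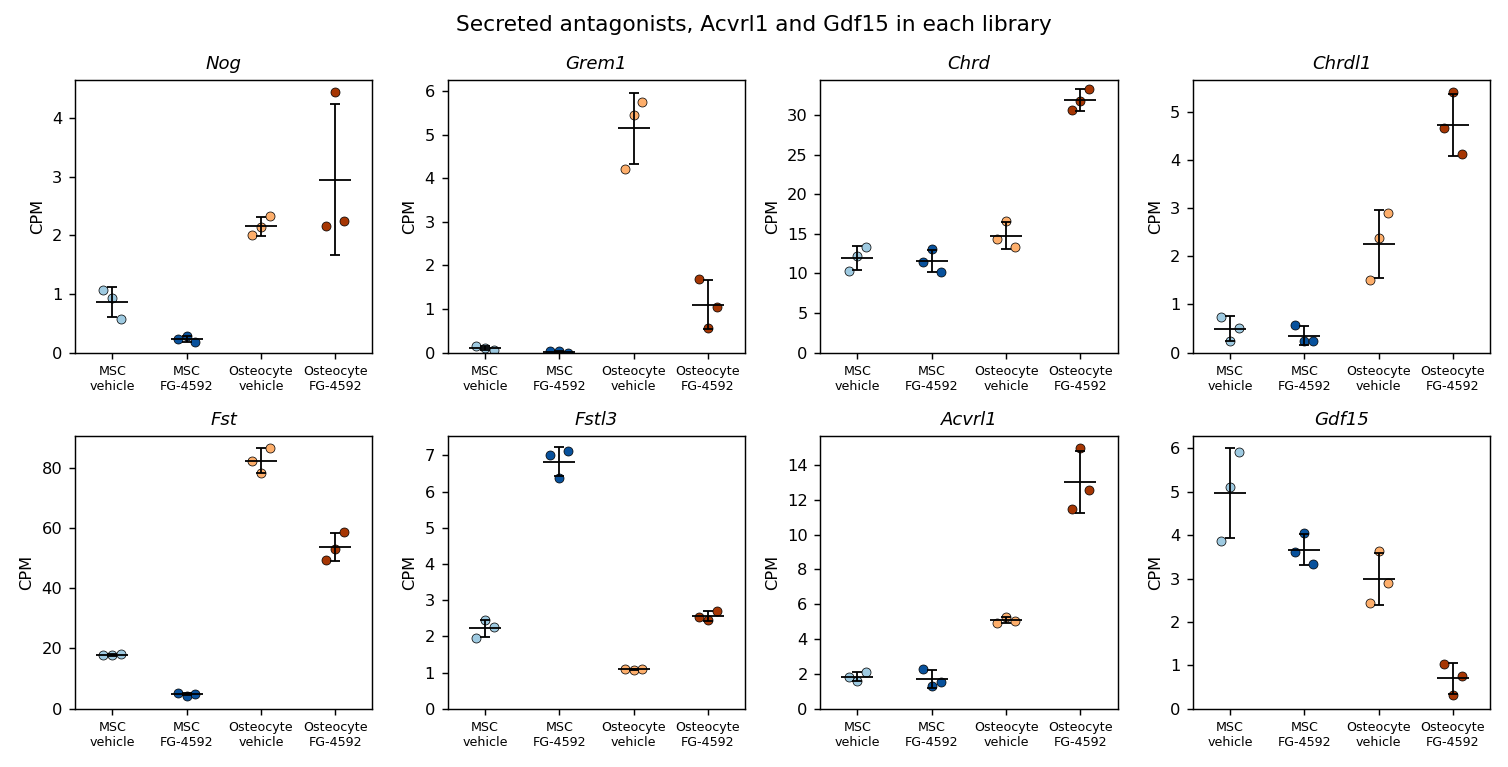
CPM in each library (points) of 6 secreted antagonists, Acvrl1 and Gdf15 in the 4 conditions, with the mean (line) and SD (bars) of 3 libraries and each axis starting at 0. Fstl3 is higher with FG-4592 in both cell types, Nog and Fst are lower in MSCs, and Chrd and Acvrl1 are highest in FG-4592-treated osteocytes.

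Some of the latent TGF-beta binding proteins tether TGF-beta to the matrix. With FG-4592 the log2 fold changes of the 4 genes lay between −0.66 and 0.27 in MSCs and between −0.98 and 0.49 in osteocytes, short of the cutoff on size. Ltbp1 (chr17:75005568-75392512, plus strand) stood at 261, 277 and 284 CPM in vehicle-treated MSCs and at 351, 308 and 312 CPM with FG-4592. Its osteocyte levels were 566, 519 and 517 CPM with vehicle and at 285, 277 and 251 CPM with FG-4592. The treated libraries were all higher in MSCs and all lower in osteocytes, with log2 fold changes of 0.24 (SE 0.06, FDR 0.00589, edgeR) and −0.98 (SE 0.06, FDR 2.87e-09) and an interaction of −1.22 (SE 0.09, FDR 9.53e-08). With library size in place of TMM the rise in MSCs was 0.16 (FDR 0.0554). Ltbp3, by contrast, rose in osteocytes, by 0.49 (SE 0.06, FDR 7.2e-06), and differed by 0.09 (SE 0.06, FDR 0.259) in MSCs. As shares of the summed CPM per kilobase of the 4 genes, Ltbp1 went from 46.1 to 50.8% in vehicle-treated osteocytes to 26.3 to 27.1% with FG-4592, and Ltbp3 from 41.4 to 46.6% to 66.1 to 67.7%. In MSCs the share of Ltbp1 was 33 to 34.1% and 34.3 to 38.9%. Ltbp4 fell in both cell types (−0.66 and −0.52, FDR 1.7e-05 and 0.000134), whereas Ltbp2 stood at 0.27 in MSCs and −0.24 in osteocytes (FDR 0.0177 and 0.0293). Both Ltbp2 calls were lost under alternatives, with 0.18 (FDR 0.0957) in MSCs with library size in place of TMM and −0.14 (FDR 0.161) in osteocytes without the third FG-4592-treated library.

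**Figure D3:**
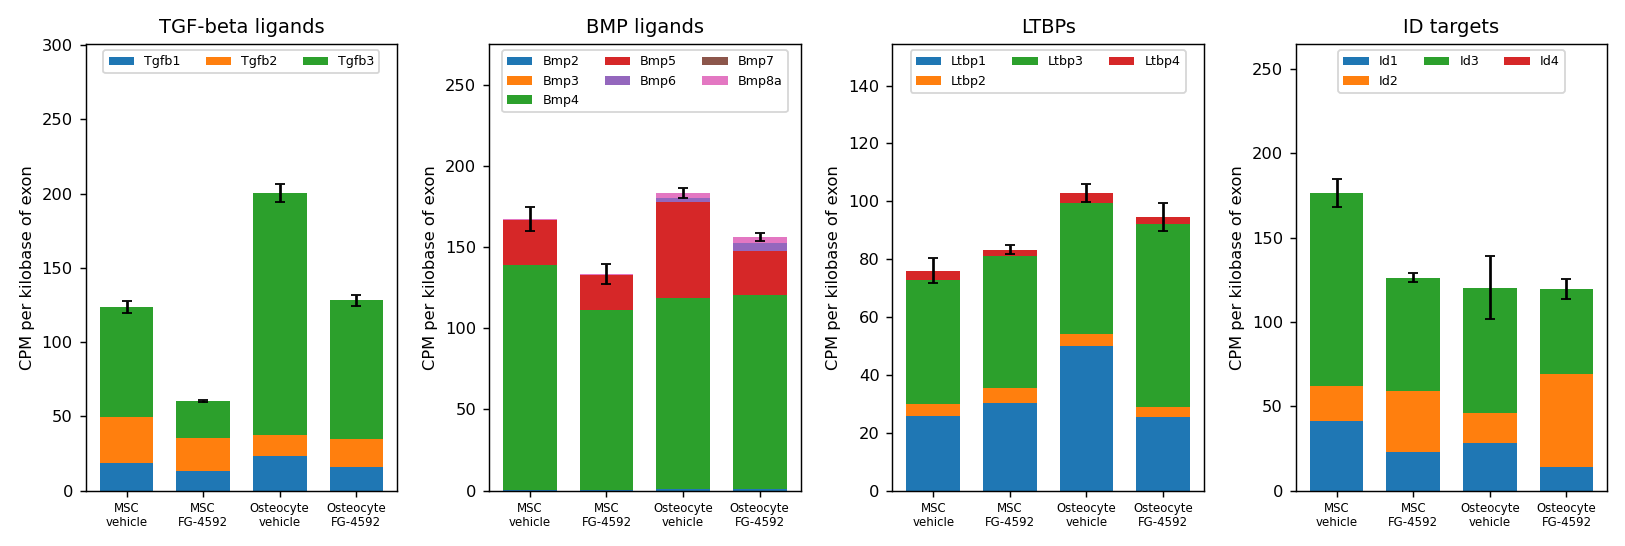
Mean CPM per kilobase of exon of the TGF-beta ligands, BMP ligands, LTBPs and ID targets in the 4 conditions, stacked by gene, with bars for the SD of the sum over 3 libraries. The TGF-beta ligands sum to 123.8 with vehicle and 60.3 with FG-4592 in MSCs, and the ID targets sum to 120.4 and 119.6 in osteocytes, where Id2 takes a larger part with FG-4592.

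The 8 SMADs stayed short of the cutoff on size, with log2 fold changes with FG-4592 between −0.22 and 0.46 in MSCs and between −0.15 and 0.85 in osteocytes. At an FDR under 0.05, 2 rose and 3 fell in MSCs, beside 17.6% and 20.4% of all genes tested, and 4 rose and 1 fell in osteocytes, beside 21.9% and 22.0%. The member that moved most was Smad7, which encodes an inhibitory SMAD that blocks receptor signalling. It stood at 36.8, 35.9 and 34.2 CPM in vehicle-treated MSCs and at 50.7, 49.0 and 47.1 CPM with FG-4592. Osteocytes held 48.3, 54.4 and 51.9 CPM with vehicle and at 94.0, 99.7 and 84.8 CPM with FG-4592. The treated libraries were higher in both cell types, by 0.46 (SE 0.07, FDR 3.79e-05, edgeR) and 0.85 (SE 0.06, FDR 2.23e-08), with a larger rise in osteocytes (interaction 0.39, SE 0.09, FDR 0.00496).

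Smad6, the other inhibitory SMAD, rose in osteocytes (0.34, SE 0.10, FDR 0.00924, edgeR) and had overlapping libraries in MSCs (−0.15, SE 0.10, FDR 0.256). Smad7 made up 24.6 to 33.1% of the 2 inhibitory SMADs per kilobase in vehicle-treated MSCs and 35.5 to 38.7% with FG-4592, and 43.9 to 44.7% and 50.8 to 54.7% in osteocytes. Of the receptor-activated SMADs of the BMP branch, Smad1 fell in MSCs (−0.17, FDR 0.0363) and rose in osteocytes (0.35, FDR 0.00026), Smad5 fell in osteocytes (−0.15, FDR 0.0362), and Smad9 fell in MSCs (−0.22, FDR 0.0451). Of the TGF-beta branch, Smad3 fell in MSCs (−0.18, FDR 0.00547) and Smad2 passed the test in neither cell type (−0.03, FDR 0.703, and −0.06, FDR 0.367). Smad4, the shared partner, rose in both (0.17, FDR 0.0263, and 0.24, FDR 0.0029).

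Most of these small SMAD changes were lost under an alternative. In MSCs, Smad1 and Smad9 lay above an FDR of 0.05 under 13 and 16 of 21 alternatives, at most at 0.211 without the second and 0.257 without the third vehicle library. Smad3 lay above it without the second vehicle-treated MSC library (FDR 0.0738), and Smad4 under 2 alternatives, at most at 0.279 with library size in place of TMM. In osteocytes, Smad5 lay above it under 3 alternatives, at most at 0.116 without the second FG-4592 library, and Smad4 and Smad6 with library size in place of TMM (FDR 0.0701 and 0.0565).

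The ID genes encode inhibitors of basic helix-loop-helix factors, and they did not move together. In both cell types Id1 and Id3 fell and Id2 rose at an FDR under 0.05, and Id4 fell in MSCs and rose in osteocytes. Id1 (chr2:152736251-152737410, plus strand) stood at 45.8, 44.0 and 53.6 CPM in vehicle-treated MSCs and at 25.6, 28.2 and 25.4 CPM with FG-4592. In osteocytes the level was 27.6, 32.0 and 38.9 CPM with vehicle and at 17.2, 17.2 and 14.0 CPM with FG-4592. The treatments did not overlap in either cell type. The log2 fold change was −0.85 (SE 0.11, FDR 1.75e-05, edgeR) in MSCs and −1.02 (SE 0.12, FDR 2.42e-06) in osteocytes, and the latter was short of the cutoff on size without the third vehicle library (−0.91) or the third FG-4592 library (−0.93).

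Id3 (chr4:136143497-136145755, plus strand) was 204 ± 7.52 and 120 ± 5.02 CPM with vehicle and with FG-4592 in MSCs, and 133 ± 20.3 and 90.5 ± 6.66 CPM in osteocytes. It fell by 0.76 (SE 0.09, FDR 2.46e-06, edgeR) and by 0.56 (SE 0.09, FDR 5.32e-05) on the log2 scale, short of the cutoff on size. The FG-4592 responses of Id1 and Id3 did not differ between the cell types past the test (−0.17, FDR 0.505, and 0.20, FDR 0.248).

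Id2 (chr12:25093799-25097140, minus strand) stood at 53.8, 49.5 and 49.4 CPM in vehicle-treated MSCs and at 88.4, 88.0 and 88.3 CPM with FG-4592. Osteocyte libraries stood at 35.6, 45.0 and 48.0 CPM with vehicle and at 136, 135 and 131 CPM with FG-4592. It was higher in each treated library, by 0.79 (SE 0.08, FDR 7.46e-07, edgeR) in MSCs and 1.65 (SE 0.08, FDR 9.77e-11) in osteocytes, and the rise was larger in osteocytes (interaction 0.85, SE 0.11, FDR 4.41e-05). As a share of the 4 ID genes per kilobase, Id2 went from 10.9 to 12.6% in vehicle-treated to 28.2 to 29.4% in FG-4592-treated MSCs, and from 14.3 to 15.1% to 44.4 to 47.4% in osteocytes. The sum of the 4 genes was 176.6 ± 8.34 and 126.2 ± 2.69 CPM per kilobase in MSCs and 120.4 ± 18.7 and 119.6 ± 5.77 in osteocytes.

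Id4 (chr13:48261228-48266026, plus strand), the member with the largest difference between the responses, had few counts. It had 72, 70 and 79 counts in vehicle-treated MSCs and 14, 14 and 6 with FG-4592, a fall of 2.78 (SE 0.58, FDR 0.00119, edgeR) on the log2 scale. In osteocytes it had 1, 6 and 0 counts with vehicle and 16, 20 and 19 with FG-4592, a rise of 2.86 (SE 0.73, FDR 0.00436). The treatments did not overlap in either cell type and their order was opposite. The interaction was 5.64 (SE 0.93, FDR 0.000335). With 1, 6 and 0 counts in vehicle-treated osteocytes, its direction can be read but not its size. The size in osteocytes rests on the second vehicle library, since it was 4.91 (FDR 0.000307) without that library and 2.27 (FDR 0.0137) without the third, and the interaction was then 7.66 and 5.02. Its level was low, at 0.322 CPM per kilobase in vehicle-treated MSCs beside 114.2 for Id3, and its overlapping partners Gm49291 and A330033J07Rik had 0 counts.

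**Figure D4:**
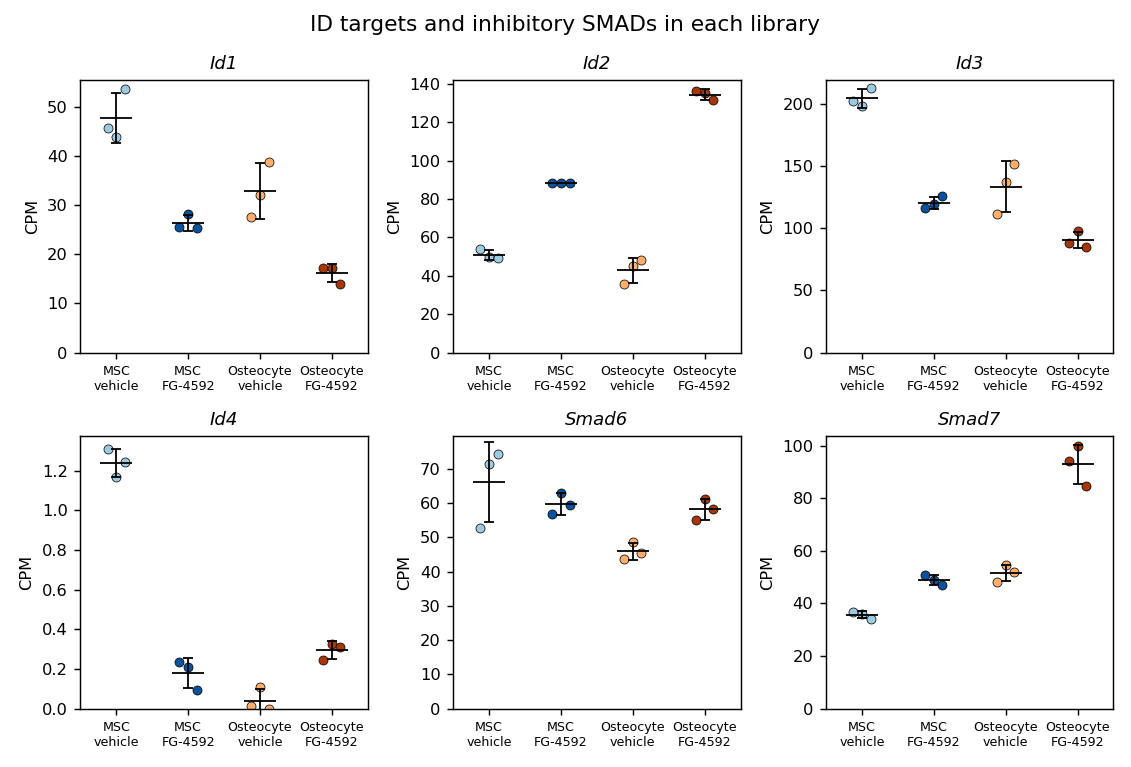
CPM in each library (points) of the 4 ID targets and the inhibitory SMADs Smad6 and Smad7 in the 4 conditions, with the mean (line) and SD (bars) of 3 libraries and each axis starting at 0. Id1 and Id3 are lower and Id2 and Smad7 higher with FG-4592 in both cell types, and Id4 is lower in MSCs and higher in osteocytes.

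The difference between the FG-4592 responses passed both cutoffs for 8 members, beside 3.94% of all genes tested with a higher and 1.07% with a lower response in osteocytes. Those with a higher response in osteocytes were Acvrl1, Nog, Chrd, Chrdl1, Fst and Id4, and those with a lower one were Gdf15 and Ltbp1. Among the antagonists, Nog fell past both cutoffs in MSCs alone, Fst fell by more in MSCs than in osteocytes, and Chrd and Chrdl1 rose past both cutoffs in osteocytes alone. At an FDR under 0.05 the interaction was positive for 19 members and negative for 8, beside 13.3% and 11.0% of all genes tested, and 21 did not pass.

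With vehicle, differentiation changed 14 members past both cutoffs, 11 up and 3 down, where 9.83% of all genes tested rose and 6.08% fell. Those that rose were the ligands Bmp2, Bmp5, Bmp6, Bmp8a, Gdf10 and Tgfb3, the receptor Acvrl1 and the antagonists Nog, Grem1, Chrdl1 and Fst, and those that fell were Tgfb2, Fstl3 and Id4. Gdf10 and Grem1 passed the filter on low counts through their osteocyte libraries alone. The comparison shares its vehicle libraries with the treatment comparisons, and the adipocyte markers, Col2a1, Pecam1 and Tek rose with it, as given above, and their part was not tested.

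Grem1 had 8, 6 and 3 counts in vehicle-treated MSCs and 280, 304 and 354 in vehicle-treated osteocytes, and no fold is given for it. Bmp6 rose from 0.325 ± 0.128 to 9.51 ± 1.22 CPM (4.88, SE 0.32, FDR 2.91e-09, edgeR). Bmp8a stood at 1.36, 1.45 and 1.46 CPM in MSCs and at 8.18, 7.57 and 6.67 CPM in osteocytes (2.39, SE 0.16, FDR 4.84e-09). For these 3 ligands and antagonists the osteocyte libraries lay far above the MSC libraries. Gdf10, a BMP3-like ligand, had 0 counts in every MSC library and 89, 87 and 80 counts in vehicle-treated osteocytes, at least 25.7-fold higher than the limit of 3 counts per library. Gdf5, a ligand of joint formation, had 2, 8 and 5 counts in vehicle-treated osteocytes and 13, 28 and 13 with FG-4592, and passed no FG-4592 test (1.77, SE 0.82, FDR 0.0989, in osteocytes).

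Among the members that fell with differentiation, Tgfb2 went from 180 ± 8.57 to 84.0 ± 6.70 CPM (−1.10, SE 0.06, FDR 6.75e-10, edgeR). Fstl3 went from 2.22 ± 0.241 to 1.08 ± 0.00564 CPM (−1.03, SE 0.16, FDR 5.46e-05), and was short of the cutoff on size without the second (−0.93) or the third (−0.98) vehicle-treated MSC library. Id4 went from 72, 70 and 79 counts to 1, 6 and 0 counts (−4.92, SE 0.71, FDR 2.24e-05), a value that was −6.96 without the second and −4.32 without the third vehicle-treated osteocyte library. In FG-4592-treated cells 12 members rose with differentiation and 2, Gdf15 and Fstl3, fell past both cutoffs, beside 12.6% and 5.64% of all genes tested. The 12 include Gdf10 and Grem1, and Gdf5, which exceeded 10 counts in the FG-4592-treated osteocyte libraries alone, so that all 3 passed the filter through the cells in which they are high.

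**Figure D5:**
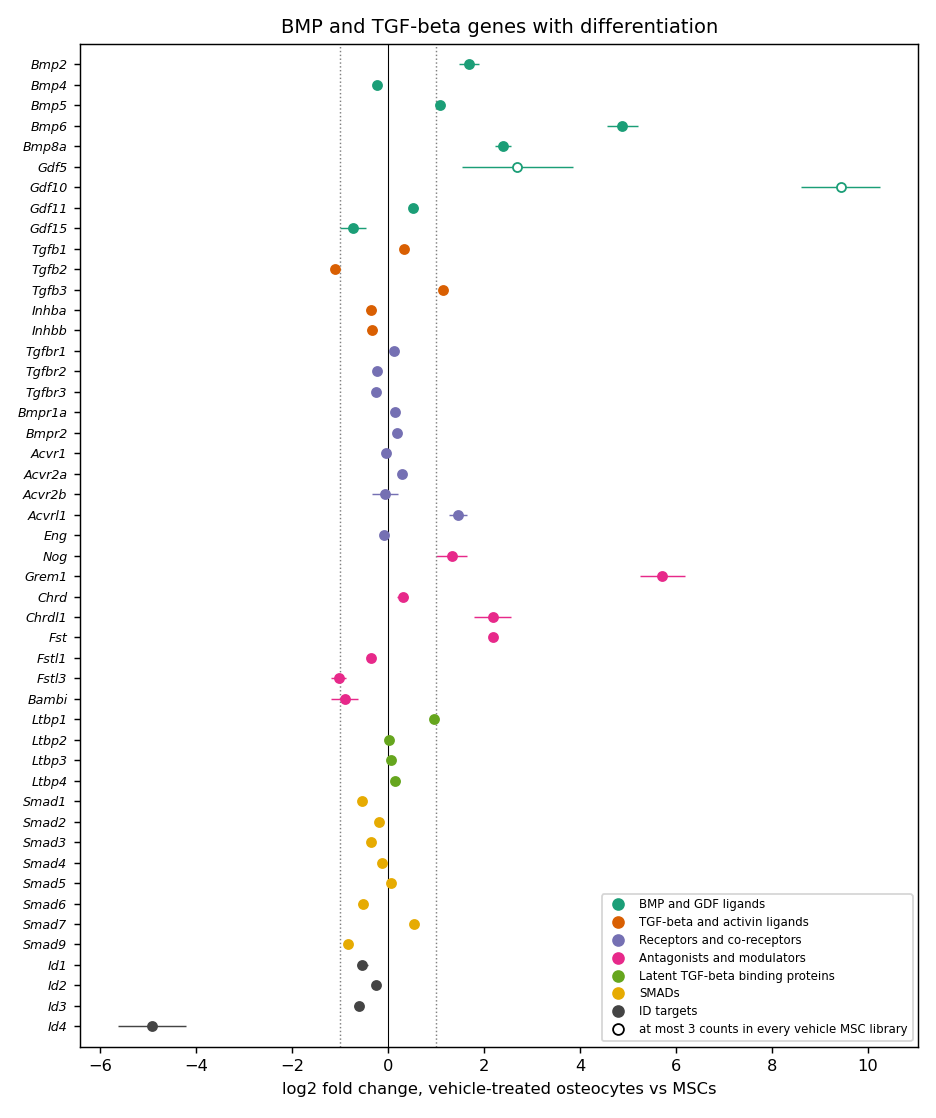
Log2 fold change between vehicle-treated osteocytes and vehicle-treated MSCs of the 48 tested members, ordered and coloured by role, with bars for the SE and dotted lines at the cutoff of 1. Open circles mark Gdf5 and Gdf10, which had at most 3 counts in every vehicle-treated MSC library, so that their fitted values are not a size, Grem1 had at most 8, and the SMADs lie between −0.84 and 0.53.

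A list of 75 other genes of the pathway, which held further ligands, modulators, SMAD regulators and targets, had 73 names in the table, and 50 were tested. With FG-4592, 3 rose and 2 fell past both cutoffs in MSCs, and 7 rose and 3 fell in osteocytes, beside 4.12% and 5.17%, and 6.25% and 4.26%, of all genes tested. Tgfbi, named for its induction by TGF-beta, went from 6.97 ± 0.645 to 2.74 ± 0.189 CPM and from 12.9 ± 1.07 to 2.64 ± 0.284 CPM (−1.35, SE 0.13, FDR 3.56e-07, and −2.29, SE 0.13, FDR 4.63e-10, edgeR).

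Smurf2, a ubiquitin ligase that acts with SMAD7 on receptors, rose in osteocytes by 1.97 (SE 0.05, FDR 2.83e-14, edgeR) and in MSCs by 0.40 (SE 0.05, FDR 6.21e-06). Thbs1, whose product thrombospondin 1 can release TGF-beta from its latent complex, rose by 2.03 (SE 0.06, FDR 1.02e-13) in osteocytes and by 0.50 (SE 0.06, FDR 2.51e-06) in MSCs. Tgif2, a transcriptional repressor that binds SMADs, fell by 1.07 (SE 0.19, FDR 0.00031) in MSCs and by 0.95 (SE 0.19, FDR 0.000632) in osteocytes. Tgif2, with a length of 3832 bases, shares 2360 exonic bases with 5430405H02Rik and Gm37790, and their part in its counts was not tested. The protease Htra1 fell by 0.65 (SE 0.07, FDR 3.53e-06) in MSCs and by 1.08 (SE 0.07, FDR 4.56e-09) in osteocytes. Acvr1c, the receptor ALK7, passed the cutoffs in MSCs (2.66, SE 0.85, FDR 0.0211) with 0, 4 and 0 counts in vehicle and 18, 9 and 2 with FG-4592, which overlap.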

How the data were processed

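RNAseq counts were analysed for 12 libraries of MPC2 cells, 3 per condition, grouped as their labels name cell type and treatment. Per the study's methods, the authors mapped paired reads to mm10 with STAR 2.7.2a, assigned them to Gencode M22 genes with featureCounts of Subread 1.6.2, and deposited raw counts, unnormalized. A read pair was counted for each gene it overlapped. Whether counting used strand is not given in the sources used here. In the counts, opposite-strand partners of several well-counted members stayed near 0 (Gm26903, with 1878 exonic bases in common with Bmp5, had 0 to 7 counts), so that sharing of reads across strands was not seen there. Of the tested members, 18 of the 48 share exonic bases with another gene, 16 of them with genes of the opposite strand alone, and for 13 no partner had over 100 counts in any library. The columns of sample values not used numbered 0.

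The counts of all 12 libraries were fitted in edgeR 4.0.16 (R 4.3.3) with TMM factors (0.9474 to 1.057), one coefficient per condition, 8 residual degrees of freedom and the quasi-likelihood test, with Benjamini-Hochberg adjustment over the 16484 genes that exceeded 10 counts in 3 or more libraries. CPM use the TMM-scaled totals, and the length is the one in the deposited table. SE is the log2 fold change divided by the root of the F statistic. Tested on simulated counts with 200 genes changed by a log2 fold of 2, the fit recovered 198 in MSCs (16030 genes), 198 in osteocytes (16001 genes) and 195 in the interaction (16037 genes), with 5, 3 and 3 false calls. The changed genes were drawn from the better-counted genes, and all other genes had equal means in all conditions. The recovery therefore does not cover members with few counts or with folds near the cutoff. Alternatives were DESeq2 1.42.0, the likelihood ratio test, other factors and filters, the 6 libraries compared alone, the replicate number as a block, removal of genes that share exonic bases (GenomicRanges 1.54.1), and each library left out in turn.

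Values in every library are given for members past both cutoffs with FG-4592 or in the interaction, and values for the 3 largest rises and falls with differentiation. Other pathway genes were named if among the 3 largest called rises or falls with FG-4592 at a mean of at least 100 counts in the highest condition, some of which are not reported here. Tgfb2, Inhba, Inhbb, Bmp6, Gdf11, Smad7 and the other members short of the cutoffs that are given with values were picked out after these were seen, as were the promoters shown. The members and lists were chosen with earlier results of these data known. Columns of the chromatin and mouse experiments were not analysed here.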

Additional observations from a re-analysis of the deposited data

Results flagged for a closer look

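The FG-4592 response differed between osteocytes and MSCs, by the interaction test of edgeR past both cutoffs, for 8 members and, among the other pathway genes reported, for Smurf2 and Thbs1. With groups of 3 libraries, no test for a library far from the others was made. On the log2 scale, as the response in osteocytes minus that in MSCs, the difference was 5.64 for Id4 (FDR 0.000335), 2.34 for Nog (FDR 0.0019), 1.57 for Chrdl1 (FDR 0.0461), 1.48 for Acvrl1 (FDR 0.000556), 1.28 for Fst (FDR 4.55e-07) and 1.16 for Chrd (FDR 6.22e-05). It was −1.22 for Ltbp1 (FDR 9.53e-08) and −1.64 for Gdf15 (FDR 0.00725). In Id4 the responses had opposite signs and each passed both cutoffs. Its counts in vehicle-treated osteocytes were too few for the size of the difference to be read. In Ltbp1 the responses had opposite signs at an FDR under 0.05, which the rise in MSCs missed with library size in place of TMM (FDR 0.0554). The difference was 1.57 for Smurf2 (FDR 3.52e-10) and 1.53 for Thbs1 (FDR 1.99e-09), both with rises in each cell type.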

How the results depend on the processing

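Of 208 recomputed counts of members called, 199 stayed within 1.5 times the reported count. Removing all genes that share exonic bases, which takes 18 members out of the test, left 0 up and 1 down with FG-4592 in MSCs, 2 up in osteocytes, 7 up and 0 down with differentiation in vehicle, 6 up and 1 down in FG-4592, and 1 up in the interaction. Leaving out one library at a time gave 1 to 2 members up in MSCs. Of 3456 recomputed log2 fold changes of 169 results, 0 changed sign, and 3242 kept their side of both the FDR cutoff and the cutoff on size. A call past both cutoffs was lost in 18 and gained in 30, in 11 results: Bmp6, Gdf11, Acvr2b, Chrdl1, Ltbp1 and Id1 in osteocytes, Fstl3, Bambi and Ltbp1 with differentiation in vehicle, and Inhbb and Chrdl1 in the interaction. All 169 had an FDR under 0.05 as reported, and 36 of them lay above it in 179 recomputed values. With FG-4592 these were Bmp8a, Inhbb, Bmpr1a, Eng, Ltbp1, Ltbp2, Smad1, Smad3, Smad4 and Smad9 in MSCs and Bmpr2, Chrdl1, Ltbp2, Smad4, Smad5 and Smad6 in osteocytes, and in the interaction Inhba, Eng, Chrdl1, Smad3 and Smad6. Only Chrdl1, in osteocytes and in the interaction, was among the calls past both cutoffs. Library size in place of TMM moved the median of all genes from −0.05 to −0.13 in MSCs and from 0.00154 to −0.10 in osteocytes. Same-numbered libraries did not deviate together (18 pairs, r from −0.14 to 0.05). This check finds only shared shifts between libraries, so that it cannot exclude that the numbers pair the cultures. With the replicate number as a block, 5 members had a higher response in osteocytes in place of 6, as Chrdl1 no longer passed (1.56, FDR 0.0711), and the other counts were the reported ones: 1 up and 4 down in MSCs, 6 up and 4 down in osteocytes, 11 up and 3 down in vehicle, 12 up and 2 down in FG-4592, and 2 down in the interaction. Counts under 100 in a condition limit, among others, Id4, Nog, Chrdl1, Grem1 and Bmp6 in MSCs, Fstl3 in vehicle-treated and Gdf15 in FG-4592-treated osteocytes, Gdf5 and Gdf10.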
